A study of Rattus norvegicus with 16 samples.

Results

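The transcripts described here are 7 aquaporins (Aqp1, Aqp2, Aqp3, Aqp4, Aqp6, Aqp7 and Aqp11) and the vasopressin V2 receptor Avpr2, found by gene symbol. They were chosen with earlier results of these data known. They are 8 of the 35849 genes in the deposited kidney expression table, and all 8 passed the filter on low counts in every comparison. Male Sprague Dawley rats, 6 to 8 weeks old, formed 4 groups of 4 animals each. Rats of the normal group received citrate buffer and a normal diet. Rats of the DN (diabetic nephropathy) group received 1 dose of 45 mg/kg streptozotocin, which destroys pancreatic beta cells, and a diet high in glucose and fat, and were kept when blood glucose passed 16.7 mmol/L. Rats of the SIN (20 mg/kg) group, the lower dose, and of the SIN (40 mg/kg) group, the higher dose, received the same streptozotocin and diet, plus sinomenine, an alkaloid of a Chinese herbal medicine, by gavage every day for 8 weeks. No rat received sinomenine without diabetes, so its effect in a healthy kidney was not measured. The values are polyA RNA-seq counts of kidney tissue, with 19616312 to 25217030 counts per rat.

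Aquaporins are membrane channels for water, and some of them also pass glycerol. In the collecting duct, vasopressin binds Avpr2 on the basolateral side of principal cells, cyclic AMP rises, Aqp2 moves to the apical membrane and water leaves the cell on the basolateral side through Aqp3 and Aqp4. Aqp1 carries water in the proximal tubule and the thin descending limb, Aqp7 carries glycerol in the straight proximal tubule, Aqp11 lies on intracellular membranes of the proximal tubule, and Aqp6 lies in vesicles of intercalated cells. Several of these genes are more abundant towards the inner medulla, so a kidney piece that holds more medulla holds more of their RNA.

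Per base of gene length, Aqp1 was the most abundant of the 8 transcripts, with a median over 16 rats of 1079 RPKM (read counts scaled by gene length and library size). The medians of the other members were 181 RPKM for Aqp2, 153 for Aqp3, 117 for Aqp6, 73.7 for Aqp7, 30.5 for Aqp11, 30.4 for Avpr2 and 18.5 for Aqp4. The order held in most rats at each step except one. Aqp1 exceeded Aqp2 in 16 of 16 rats, Aqp2 exceeded Aqp3 in 14 of 16 and Aqp3 exceeded Aqp6 in 12 of 16. Aqp6 exceeded Aqp7 in 14 of 16 rats, Aqp7 exceeded Aqp11 in 15 of 16, and Avpr2 exceeded Aqp4 in 15 of 16. Aqp11 exceeded Avpr2 in only 7 of 16 rats, so these neighbours in the order did not differ beyond their spread. Among the other aquaporins, Mip, Aqp5, Aqp8, Aqp9 and Aqp12a were at or near 0, with at most 1.33 CPM (counts scaled by library size) in any rat, and Aqp12b was not matched in the table.

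The members differed in how much they varied from rat to rat. Aqp4 varied 15.1-fold between the lowest and highest rat, Aqp2 9.13-fold, Avpr2 5.32-fold and Aqp3 4.53-fold. Aqp11 varied 3.71-fold and Aqp6 2.83-fold. Aqp1 and Aqp7 varied only 1.62-fold and 1.61-fold. The lowest of the 16 rats was normal replicate 1 for 5 members, namely Aqp2, Aqp3, Aqp4, Aqp6 and Avpr2.

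That rat also stood apart in its region markers. Which part of the kidney was taken is not given in the sources used here. A list of 8 proximal tubule genes summed to 7479 to 13788 CPM over the 16 rats. Medulla content was scored per rat as the mean log2 CPM of 5 inner medulla genes, among them Slc14a2, Slc4a11 and Wnt7b, minus that of 8 cortex genes of podocytes and the distal convoluted tubule. None of the 8 members is in this medulla index, and 1 cortex gene, Pvalb, was at or near 0 in every rat. The index was -2.51 in normal replicate 1 and 0.39, 1.02 and 0.72 in the other normal rats. In the DN group it was 2.84, 2.34, 0.82 and -1.03. It was 0.64, 2.24, 1.06 and 1.82 in the lower-dose SIN group and 0.04, 1.81, 2.36 and 1.83 in the higher-dose SIN group. The groups overlapped, and normal replicate 1 and DN replicate 4 were the only rats with an index below 0. The mean index was 1.33 higher in the DN group than in the normal group (exact permutation test, two-sided, p = 0.314), and 1.53 and 1.60 higher at the lower and higher dose of SIN (p = 0.114 for each, exact permutation test). The smallest p this test allows with 4 rats against 4 is 0.0286. Inner medulla genes made nearly all of this spread, with a mean log2 CPM of 2.72 to 7.32 over the rats against 4.36 to 5.22 for the cortex genes.

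**Figure D1:**
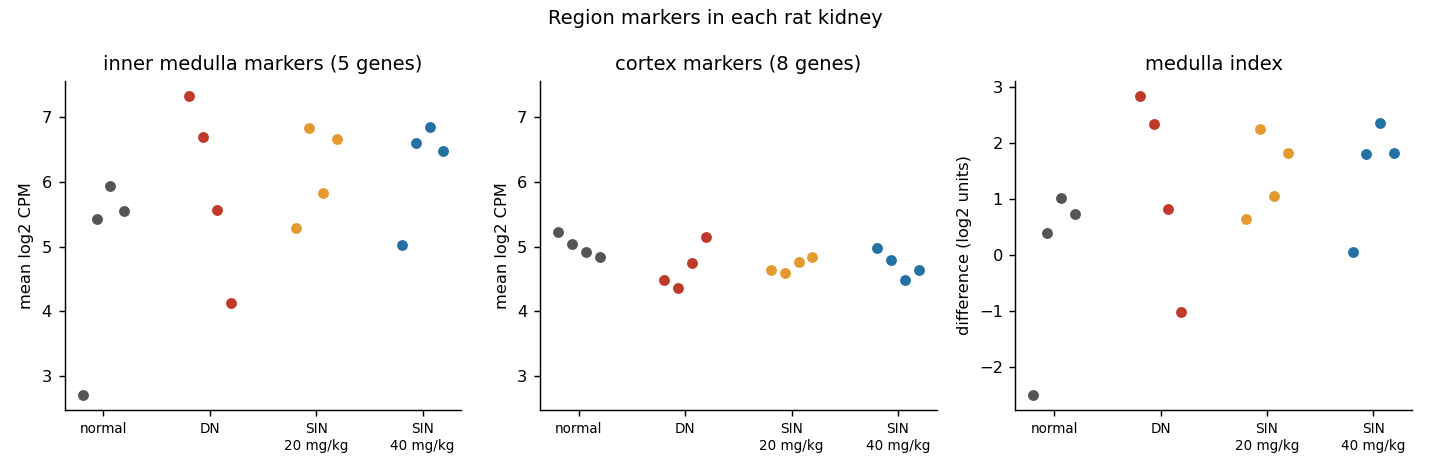
Mean log2 CPM of the inner medulla genes, mean log2 CPM of the cortex genes, and the medulla index (the difference between them) for each of the 16 rats, by group, where each point is 1 rat. Normal replicate 1, at -2.51, and DN replicate 4, at -1.03, lie below the other 14 rats on the index.

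Aqp2 is the vasopressin-regulated apical water channel of principal cells. It measured 139, 590, 358 and 333 CPM in the normal rats and 1048, 1266, 604 and 399 CPM in the DN rats. It measured 550, 972, 759 and 1132 CPM in the SIN (20 mg/kg) rats and 613, 977, 1236 and 745 CPM in the SIN (40 mg/kg) rats. Every SIN (40 mg/kg) rat lay above every normal rat, whereas 1 DN rat and 1 SIN (20 mg/kg) rat fell below the highest normal rat. Here and for the members below, the share of all genes without overlap between groups is not given. A full separation therefore has no background to be set against. The means of the DN, lower-dose and higher-dose groups, 829 ± 398, 853 ± 253 and 893 ± 274 CPM (SD, n = 4), stood over a normal mean of 355 ± 185 CPM.

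Aqp3, which lets water and glycerol out of the same cells on the basolateral side, measured 104, 242, 157 and 174 CPM in the normal rats. The DN rats were at 473, 375, 252 and 150 CPM, the widest spread of the 4 groups. The SIN (20 mg/kg) rats were at 248, 328, 295 and 303 CPM, all above the highest normal rat. The SIN (40 mg/kg) rats were at 231, 403, 445 and 296 CPM, and 3 of the 4 exceeded every normal rat.

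Avpr2, the receptor at the head of this pathway, measured 12.6, 26.8, 32.5 and 20.3 CPM in the normal rats and 67.2, 60.8, 31.8 and 25.8 CPM in the DN rats. It measured 31.0, 52.0, 43.1 and 54.7 CPM in the SIN (20 mg/kg) rats and 31.1, 41.7, 56.0 and 35.3 CPM in the SIN (40 mg/kg) rats. Each group overlapped the normal group, with 2 DN rats and 3 rats of each SIN group above the highest normal rat. DN replicates 1 and 2, the DN rats with the highest medulla index, held the highest Avpr2 values of all 16 rats.

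Aqp4, the basolateral channel that is densest in the inner medullary collecting duct, had the lowest median RPKM of the members and the widest fold range over the rats. It measured 7.31, 28.8, 65.2 and 33.6 CPM in the normal rats and 56.8, 64.8, 31.4 and 13.2 CPM in the DN rats. The SIN (20 mg/kg) rats lay close together at 57.6, 64.5, 66.9 and 78.1 CPM, while the SIN (40 mg/kg) rats were at 33.0, 84.9, 80.2 and 111 CPM. The normal and DN ranges nearly coincided, and 3 SIN (40 mg/kg) rats and 2 SIN (20 mg/kg) rats lay above every normal and DN rat.

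Among the members outside principal cells, Aqp1 and Aqp7 varied least. Aqp1 ranged from 2462 to 3484 CPM in the normal group, 2645 to 3679 in the DN group, 2270 to 3455 at the lower SIN dose and 2396 to 2879 at the higher dose. Aqp7 ranged from 91.2 to 112 CPM in the normal group and was lowest of all in DN replicate 1. Aqp6 measured 105, 189, 190 and 197 CPM in the normal rats, with normal replicate 1 apart from the others, and 119 to 298 CPM elsewhere. Aqp11 ranged from 26.5 to 47.2 CPM in the normal group, and SIN (20 mg/kg) replicate 2, at 98.3 CPM, was the highest of the 16 rats.

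**Figure D2:**
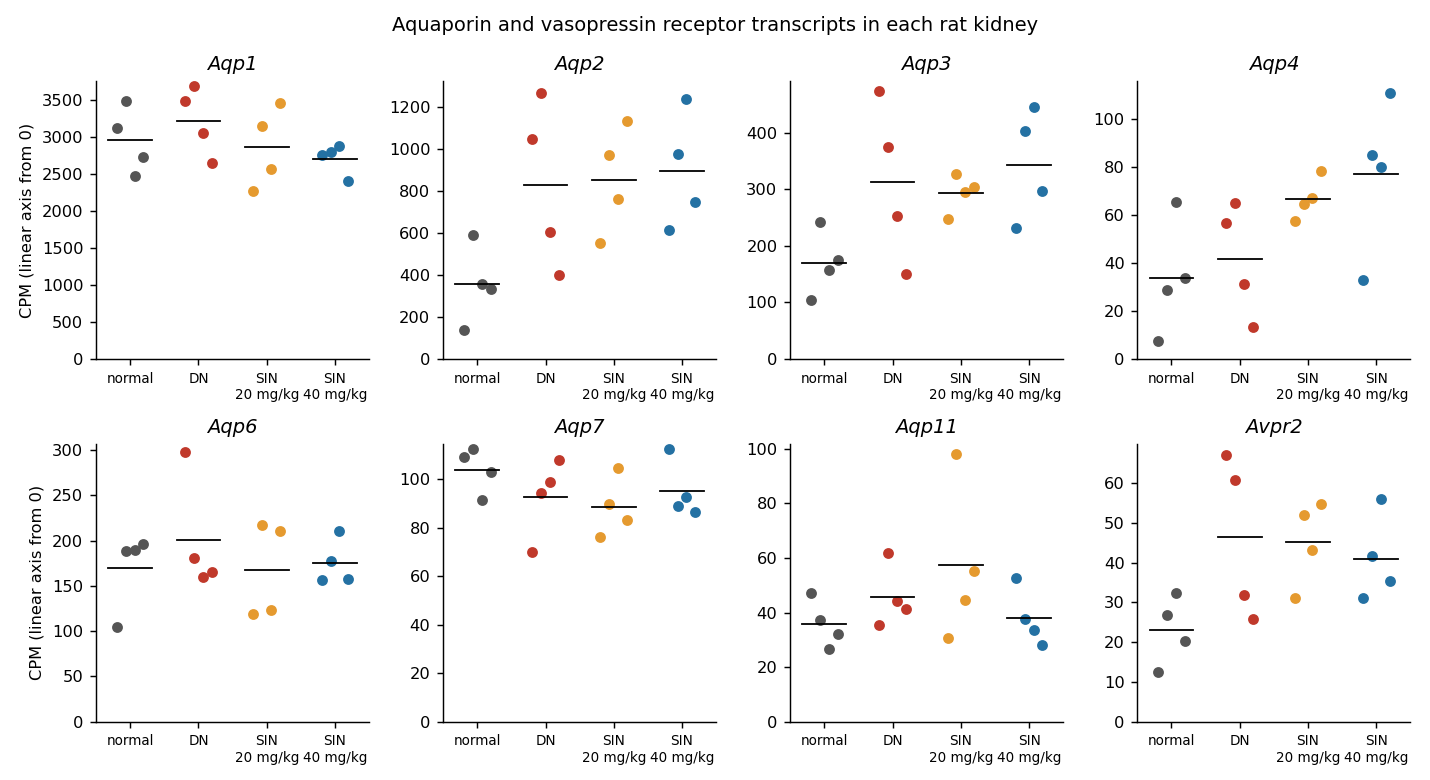
CPM of the 8 transcripts in each of the 16 rats, on linear axes from 0, with 1 point per rat in replicate order and a black line at each group mean (n = 4). Aqp2, Aqp3 and Avpr2 have higher means in the 3 diabetic groups than in the normal group, and Aqp1 and Aqp7 show nearly level means.

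The first question was whether diabetes changed these transcripts. No member was called in DN over normal by the edgeR quasi-likelihood test at a Benjamini-Hochberg adjusted p under 0.05, where 19.5% of all 15775 genes tested were called. At an unadjusted p under 0.05 there were 3 members, all higher, where 36.9% of all genes passed. The log2 fold changes of these 3 were 1.23 for Aqp2 (95% interval 0.24 to 2.21, adjusted p = 0.076), 1.01 for Avpr2 (0.22 to 1.80, adjusted p = 0.070) and 0.88 for Aqp3 (0.12 to 1.65, adjusted p = 0.0928). Aqp4 was at 0.30 with an interval of -1.03 to 1.63, too wide to tell a fall from a rise. Aqp1 was at 0.13, with an interval of -0.20 to 0.46, and Aqp7 was at -0.16, with an interval of -0.46 to 0.14. Aqp6 was at 0.24 (-0.30 to 0.79) and Aqp11 at 0.36 (-0.10 to 0.81). The median log2 fold change of the 8 members was 0.33, against 0.0016 over all genes tested. DESeq2 called 2 members here, Aqp3 and Avpr2, and edgeR's exact test called 2, Aqp2 and Avpr2. Without DN replicate 4, the DN rat with the lowest medulla index, 3 members were called, with log2 fold changes of 1.46 for Aqp2, 1.11 for Aqp3 and 1.21 for Avpr2 (adjusted p = 0.0463, 0.0331 and 0.0408). Without normal replicate 2, Aqp2 alone was called, at 1.58 (adjusted p = 0.0392). For DESeq2, the exact test and fits without a rat, the share of all genes called is not given here in any comparison. Their counts of members therefore have no background to be set against.

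The groups given sinomenine were next compared with the same 4 normal rats, so the 3 comparisons over normal share their controls. In SIN (20 mg/kg) over normal, 0 members were called by edgeR, where 6.36% of all genes were, and 3 members passed an unadjusted p under 0.05, where 20.8% of all genes did. The log2 fold changes were 1.27 for Aqp2 (0.44 to 2.09, adjusted p = 0.0772), 0.97 for Avpr2 (0.38 to 1.57, adjusted p = 0.062) and 0.79 for Aqp3 (0.32 to 1.26, adjusted p = 0.0559). Aqp4 was at 0.99, with an interval of -0.04 to 2.01 and an adjusted p of 0.26. Aqp11 was at 0.67 (-0.03 to 1.38), Aqp7 at -0.24 (-0.49 to 0.02), Aqp1 at -0.05 (-0.40 to 0.30) and Aqp6 at -0.02 (-0.57 to 0.53). DESeq2 and edgeR's exact test each called 3 members, Aqp2, Aqp3 and Avpr2. The edgeR fit called Aqp2 (1.63) and Aqp3 (1.01) without normal replicate 2, and Avpr2 alone without SIN (20 mg/kg) replicate 1 (1.11) or without normal replicate 3 (1.18).

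In SIN (40 mg/kg) over normal, Aqp3 was the 1 member called, with a log2 fold change of 1.02 (0.44 to 1.60) and an adjusted p of 0.0493, where 5.97% of all genes were called. Its change also passed the study's size limit of 1 on the log2 scale. The adjusted p was just under the threshold, and the call was lost when any 1 of 6 of the 8 rats was left out, namely normal replicate 1, 3 or 4 or SIN (40 mg/kg) replicate 2, 3 or 4, with log2 fold changes of 0.84 to 1.09 and adjusted p values of up to 0.135. Without normal replicate 2, Aqp2 was called too, at 1.69. There were 4 members at an unadjusted p under 0.05, where 22.9% of all genes passed. Besides Aqp3 these were Aqp2 at 1.33 (0.50 to 2.16, adjusted p = 0.0641), Aqp4 at 1.19 (0.0023 to 2.37, adjusted p = 0.217) and Avpr2 at 0.83 (0.22 to 1.44, adjusted p = 0.104). Aqp11, Aqp6, Aqp1 and Aqp7 lay between -0.13 and 0.09. DESeq2 and edgeR's exact test each called 3 members, adding Aqp2 and Avpr2 to Aqp3. The call of Aqp3 was also lost with RLE normalization (adjusted p = 0.0505) and when the 4 groups were fitted together (adjusted p = 0.0615).

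Of the 8 members, 5 followed the medulla index from rat to rat inside the groups. The share of all genes that followed it was not computed, so this count has no background to be set against. After the group means were removed, Aqp4 had the highest Pearson's r with the index over 16 rats (Pearson's r = 0.925, permutation p = 0.00067, adjusted over the 8 members 0.00122; Spearman's rho = 0.862, permutation p = 0.00148, adjusted 0.00395). It gained 0.64 log2 units per unit of the index. Avpr2 had r = 0.912 and the highest rho (permutation p = 4e-05, adjusted 0.00032; rho = 0.921, permutation p = 0.00016, adjusted 0.00084). Aqp3 had r = 0.887 and rho = 0.809, with permutation p values of 0.00076 and 0.00459 (adjusted 0.00122 and 0.00734). Aqp2 had r = 0.884 and rho = 0.841, with permutation p values of 0.00074 and 0.0024 (adjusted 0.00122 and 0.0048), and gained 0.43 log2 units per unit. Aqp6 had r = 0.785 and rho = 0.809, with permutation p values of 0.00046 and 0.00021 (adjusted 0.00122 and 0.00084). These 5 members had a positive correlation in each of the 4 groups.

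Leaving out normal replicate 1 and DN replicate 4, the rats farthest from the median index, lowered each of these correlations without ending it. Over the remaining 14 rats r was 0.841 for Avpr2 (permutation p = 0.00097), 0.776 for Aqp4 (p = 0.0116, permutation), 0.754 for Aqp3 (p = 0.0126, permutation), 0.751 for Aqp6 (p = 0.0145, permutation) and 0.713 for Aqp2 (p = 0.0166, permutation). The 3 members of the proximal tubule behaved otherwise. Aqp7 had a negative r of -0.587 (permutation p = 0.0386, adjusted 0.0515; rho = -0.50, permutation p = 0.0658, adjusted 0.0877), and r = -0.559 without those rats (permutation p = 0.112). Aqp1 had r = 0.332 (permutation p = 0.263, adjusted 0.30; rho = 0.385, permutation p = 0.172, adjusted 0.197), and r = 0.360 without those rats (permutation p = 0.186). Aqp11 had r = -0.107 (permutation p = 0.669, adjusted 0.669; rho = -0.182, permutation p = 0.504, adjusted 0.504), and r = 0.054 without those rats (permutation p = 0.869). In kidney tissue of mixed cell types, fewer cells of a type and less RNA per cell cannot be told apart.

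**Figure D3:**
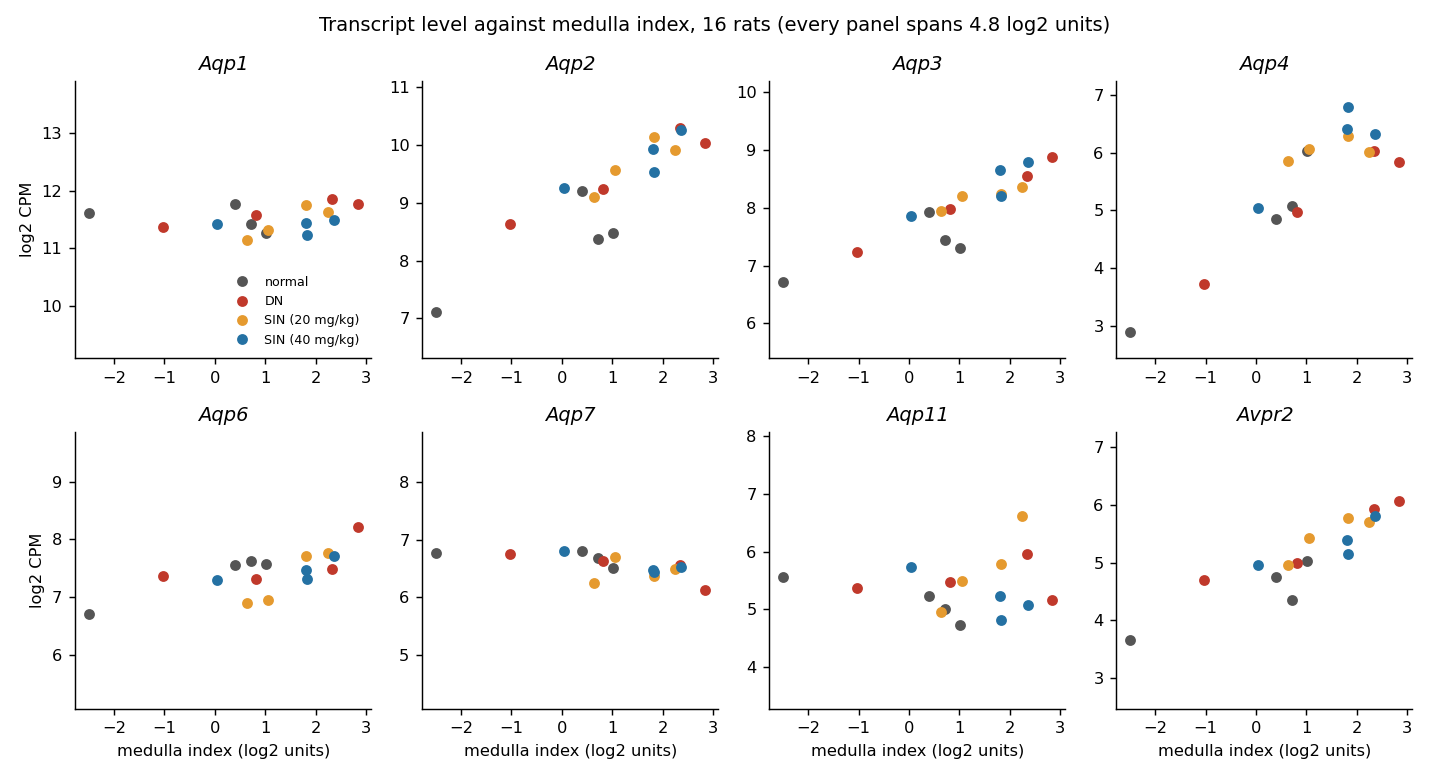
log2 CPM of each transcript against the medulla index, for 16 rats coloured by group, with the same height in log2 units in every panel. Aqp2, Aqp3, Aqp4 and Avpr2 climb from normal replicate 1 at the left to DN replicates 1 and 2 and SIN (40 mg/kg) replicate 3 at the right, whereas Aqp1 stays level and Aqp7 declines slightly.

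With the medulla index of each rat as a covariate in the edgeR fit, the differences of Aqp2, Aqp3 and Avpr2 from the normal group became smaller and some others grew. In DN over normal the log2 fold change of Aqp2 went from 1.23 to 0.63 (0.069 to 1.19, adjusted p = 0.105), that of Avpr2 from 1.01 to 0.50 (0.14 to 0.86, adjusted p = 0.0597) and that of Aqp3 from 0.88 to 0.35 (-0.091 to 0.79, adjusted p = 0.229). Aqp4 changed sign, from 0.30 to -0.52 (-1.01 to -0.024, adjusted p = 0.124). No member was called in this fit, where 17.6% of all genes were. In SIN (20 mg/kg) over normal, Aqp2 went to 0.61 (-0.053 to 1.26), Avpr2 to 0.48 (0.065 to 0.89), Aqp3 to 0.46 (0.020 to 0.91) and Aqp4 to 0.29 (-0.33 to 0.92), with 0 members called, where 2.4% of all genes were. In SIN (40 mg/kg) over normal, Aqp2 went to 0.71 (0.086 to 1.33), Aqp3 to 0.57 (0.076 to 1.06, adjusted p = 0.182), Avpr2 to 0.36 (-0.062 to 0.78) and Aqp4 to 0.20 (-0.36 to 0.76). No member was then called, where 4.14% of all genes were, and Aqp3 lost its call. Aqp11 grew from 0.09 to 0.46 (0.10 to 0.82, unadjusted p = 0.0173, adjusted p = 0.143) in SIN (40 mg/kg) over normal, and from 0.36 to 0.48 (-0.03 to 0.99, adjusted p = 0.161) in DN over normal. Aqp6, at -0.02 without the covariate, went to -0.50 (-0.89 to -0.12, unadjusted p = 0.0166, adjusted p = 0.192) in SIN (20 mg/kg) over normal. When all 16 rats entered 1 fit without a covariate, 3 members were called in DN over normal (Aqp2, Aqp3 and Avpr2, adjusted p = 0.0386, 0.048 and 0.0344), where 22.4% of all genes were. With the covariate in that fit, which was added after the data had been seen, Avpr2 alone was called there (log2 fold change 0.50, adjusted p = 0.0392), where 18.3% of all genes were.

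**Figure D4:**
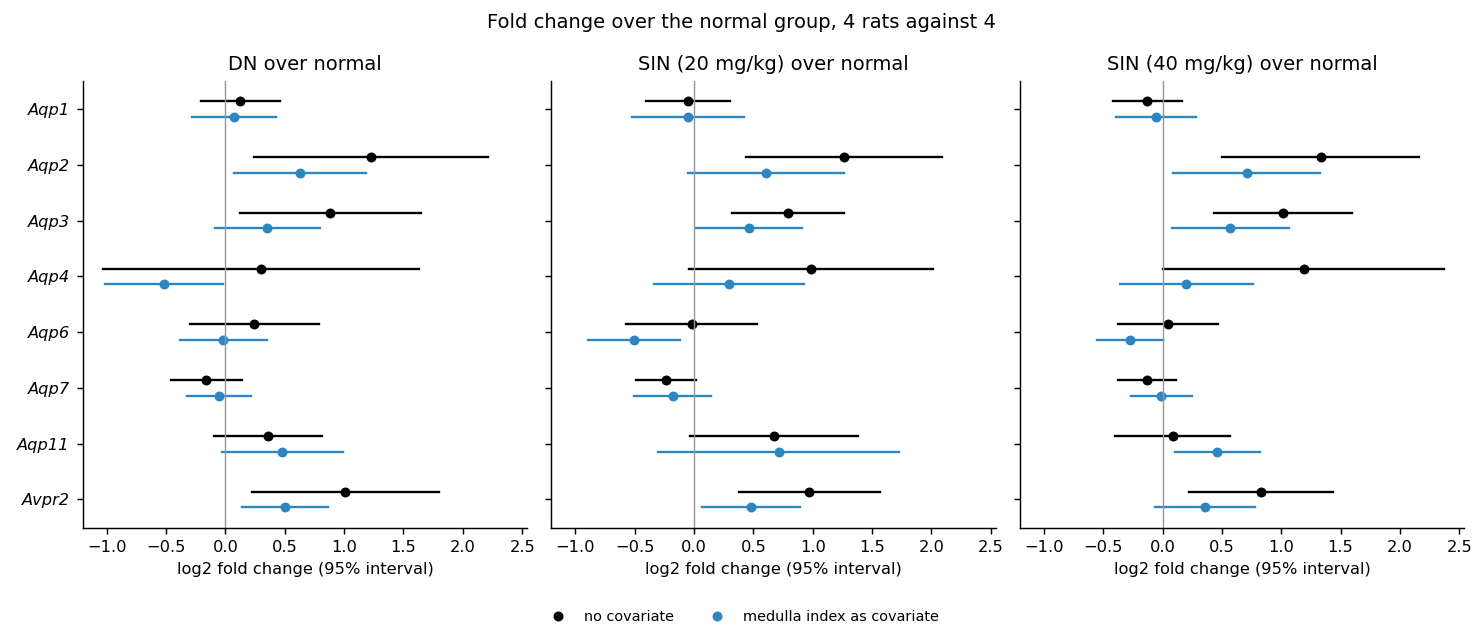
log2 fold change of each transcript over the normal group with its 95% interval, without a covariate (black) and with the medulla index as a covariate (blue), 4 rats against 4 in each panel. Aqp2, Aqp3 and Avpr2 move towards 0 with the covariate in all 3 comparisons, and Aqp4 crosses 0 in DN over normal.

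Set against markers of their own cell type, the principal cell members kept differences of similar size, but the mean of those markers varied little. The 6 principal cell genes (Scnn1b, Scnn1g, Hsd11b2, Fxyd4, Gata3 and Tfcp2l1) had a mean log2 CPM of 5.76 to 6.29 over the rats, but they did not move together. The medulla index ran from -2.51 to 2.84 over the same rats, so subtracting this mean could remove little of the medulla content. Fxyd4, a regulator of the sodium pump, ranged from 12.3 to 89.3 CPM and was at a log2 fold change of 0.79 in DN over normal (adjusted p = 0.222), whereas Tfcp2l1 was called lower in all 3 comparisons over normal. The summed level of the list was 729 to 835 CPM in the normal rats and 548 to 691 CPM in the DN rats. Tfcp2l1 lowered this sum, with a mean of 441 CPM in the normal group and 249 CPM in the DN group. Means of the other genes of the list were level or higher in the DN group. The mean log2 CPM of all 6 genes was 5.76 to 6.19 in the normal rats and 5.96 to 6.29 in the DN rats. Measured as log2 CPM minus the mean of these genes, Aqp2 was 1.14 higher in the DN group than in the normal group (exact permutation p = 0.0571, adjusted over the 8 members and 6 comparisons 0.249). The corresponding differences over normal were 1.31 in the SIN (20 mg/kg) group (exact p = 0.0286, adjusted 0.229) and 1.28 in the SIN (40 mg/kg) group (exact p = 0.0571, adjusted 0.249). Over normal, in the DN, lower-dose and higher-dose groups in turn, Aqp3 was 0.70, 0.77 and 0.86 higher and Avpr2 0.86, 0.94 and 0.71 higher. Aqp4 was 0.31, 1.27 and 1.26 higher. Aqp11, set against 8 proximal tubule genes, was 0.70 higher in the DN group (exact p = 0.0286, adjusted 0.229), with every DN rat above every normal rat on this scale, whereas its own CPM overlapped between the groups. The mean log2 CPM of those proximal tubule genes was 9.03 to 9.92 in the DN rats against 9.72 to 10.2 in the normal rats, but they did not move together. Slc7a13, an amino acid transporter in the list, fell by 1.51 (edgeR adjusted p = 0.00113). Group means of Slc34a1, Slc5a2, Slc5a12 and Lrp2 were also lower in the DN group, whereas those of Cubn, Slc22a6 and Slc22a8 were higher. Against the same genes, Aqp1 was 0.47 higher in the DN group (exact p = 0.171, adjusted 0.374) and Aqp7 0.17 higher (exact p = 0.20, adjusted 0.417). Aqp6, set against 7 intercalated cell genes, was 0.63 higher in the DN group (exact p = 0.0857, adjusted 0.274), where the mean log2 CPM of those genes was 5.44 to 5.96 against 5.99 to 6.20 in the normal rats. No difference of a member from its host cell markers passed the adjusted threshold in any of the 6 comparisons, and the exact test at this size could give an unadjusted p no smaller than 0.0286.

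The second question was what sinomenine did within diabetes. Over DN, at 20 mg/kg, edgeR, DESeq2 and edgeR's exact test each called 0 of the 8 members, edgeR called 0% of all genes, and 0 members passed an unadjusted p under 0.05, where 15.4% of all genes did. At 40 mg/kg the same 3 tests called 0 members, edgeR called 0% of all genes, and 0 members passed an unadjusted p under 0.05, where 17.1% of all genes did. These comparisons share the 4 DN rats. The log2 fold changes of Aqp2 were 0.04 (-0.72 to 0.80) and 0.11 (-0.67 to 0.88), those of Aqp3 were -0.09 (-0.73 to 0.55) and 0.14 (-0.60 to 0.87), and those of Avpr2 were -0.04 (-0.71 to 0.63) and -0.18 (-0.86 to 0.51). Together these intervals leave room for differences from -0.86 to 0.88 log2 units.

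Aqp4 had the largest difference from DN of the 8 members at both doses. Its log2 fold change was 0.68 in SIN (20 mg/kg) over DN (-0.17 to 1.53, unadjusted p = 0.106, adjusted p = 0.394) and 0.90 in SIN (40 mg/kg) over DN (-0.16 to 1.95, unadjusted p = 0.0879, adjusted p = 0.359). With the medulla index as a covariate the intervals narrowed. The log2 fold changes were then 0.81 (0.42 to 1.20, unadjusted p = 0.000973, adjusted p = 0.114) and 0.87 (0.45 to 1.28, unadjusted p = 0.000943, adjusted p = 0.102), neither past the adjusted threshold. Against the principal cell genes, Aqp4 was 0.956 higher in the SIN (20 mg/kg) group than in the DN group (exact p = 0.0286, adjusted 0.229), and every rat of the former lay above every rat of the latter on this scale. For SIN (40 mg/kg) the same difference was 0.948 (exact p = 0.171, adjusted 0.374). Without DN replicate 4, the DN rat of lowest medulla index, the uncorrected log2 fold change of Aqp4 over DN was 0.39 for SIN (20 mg/kg) and 0.60 for SIN (40 mg/kg). Other members were within 0.32 log2 units of DN at both doses. With the covariate, Aqp1 was at -0.26 in SIN (40 mg/kg) over DN (-0.48 to -0.04, edgeR unadjusted p = 0.0254, adjusted p = 0.185). No member was called over DN with the covariate, where 0% of all genes were called at the lower dose and 0.0451% at the higher.

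**Figure D5:**
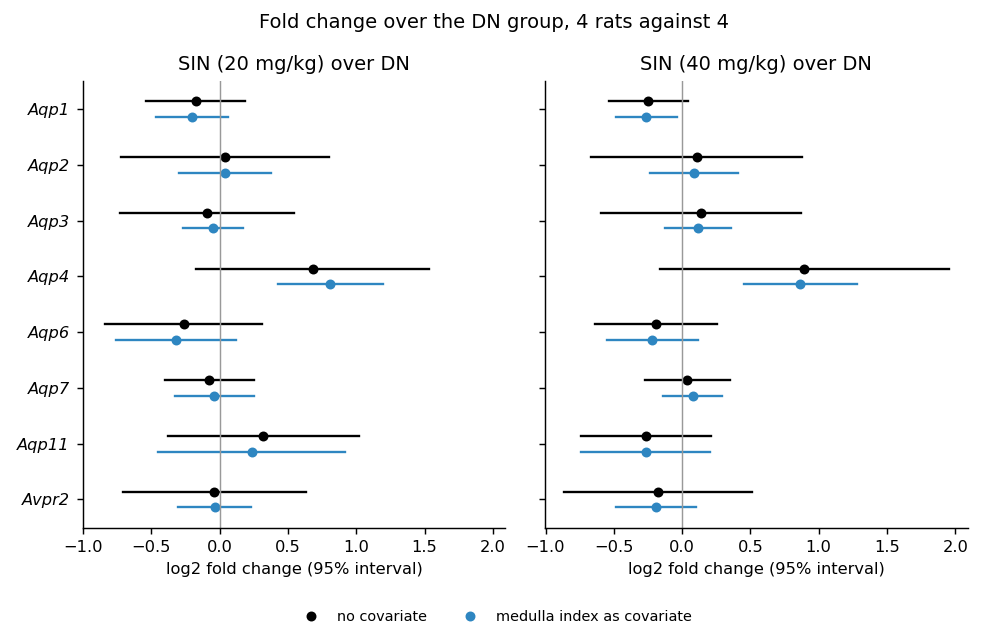
log2 fold change of each transcript over the DN group with its 95% interval, without a covariate (black) and with the medulla index as a covariate (blue), 4 rats against 4 in each panel. Aqp4 lies farthest to the right at both doses, at 0.68 and 0.90 without the covariate. The intervals of the other members span 0, except that of Aqp1 at the higher dose with the covariate.

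Between the doses, in SIN (40 mg/kg) over SIN (20 mg/kg), edgeR, DESeq2 and edgeR's exact test each called 0 members, where edgeR called 0.00639% of all genes, and 0 members passed an unadjusted p under 0.05, where 4.98% of all genes did. Aqp11 had the largest difference, at -0.60 (-1.31 to 0.11, adjusted p = 0.961), with 98.3 CPM in SIN (20 mg/kg) replicate 2.

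Several of the members share a place in the genome or a pattern across rats. Aqp2 and Aqp6 lie on chromosome 7 with Aqp5 as the only protein-coding gene between them, and Aqp3 and Aqp7 are adjacent protein-coding genes on chromosome 5. Across the 16 rats, after removing group means, log2 CPM of Aqp2 correlated with that of Avpr2 at r = 0.916 and with that of Aqp3 at r = 0.913, whereas the neighbours Aqp2 and Aqp6 had r = 0.751 and Aqp3 and Aqp7 had r = -0.480. These values are descriptions, since the same libraries and the same tissue pieces lie behind each pair. By the same measure over all genes with a mean of at least 1 CPM, the genes most like Aqp2 included Ptgfrn (r = 0.947) and Plvap (0.938), and Ptgfrn (0.952) was also among the nearest of Aqp3, with Gmpr (0.958) and Sema4f (0.948). The genes most like Avpr2 were Hcn2 (0.961), Esrp1 (0.960) and L1cam (0.952), and L1cam is the protein-coding gene next to Avpr2 on the X chromosome. Those most like Aqp4 were Srpx2 (0.948), Ehf (0.947) and Grip1 (0.945).

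The 3 members with the largest differences from normal by unadjusted p in the DN comparison moved together from rat to rat, so their promoters are shown, as the 250 bases before each gene's start in RefSeq on GRCr8, read 5′ to 3′ on the gene's own strand. Capitals mark matches on either strand to a cyclic AMP response element core (TGACG), the core that NFAT5, the tonicity-responsive factor, binds (TGGAAA), and a GATA core (AGATAA). Such windows were found for 7 of the 8 members.
Aqp2, chr7:132590036-132590285, plus strand: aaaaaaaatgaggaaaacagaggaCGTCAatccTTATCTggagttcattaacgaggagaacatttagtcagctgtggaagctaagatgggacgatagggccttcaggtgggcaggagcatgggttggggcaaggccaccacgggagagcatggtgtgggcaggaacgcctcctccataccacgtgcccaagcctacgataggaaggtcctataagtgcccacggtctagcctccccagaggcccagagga
Aqp3, chr5:61040684-61040933, minus strand: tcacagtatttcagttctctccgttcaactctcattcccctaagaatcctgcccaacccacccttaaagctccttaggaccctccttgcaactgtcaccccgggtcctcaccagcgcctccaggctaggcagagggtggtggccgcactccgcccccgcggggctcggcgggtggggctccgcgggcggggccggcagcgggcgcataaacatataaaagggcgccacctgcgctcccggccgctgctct
Avpr2, chrX:156784889-156785138, plus strand: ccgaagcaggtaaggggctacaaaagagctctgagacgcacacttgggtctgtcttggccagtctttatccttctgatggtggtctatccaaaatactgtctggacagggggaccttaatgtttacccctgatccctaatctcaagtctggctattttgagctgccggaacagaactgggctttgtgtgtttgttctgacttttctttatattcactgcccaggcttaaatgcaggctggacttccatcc
The Aqp2 window held 1 cyclic AMP response element core, which begins 226 bases before the start, and 1 GATA core, which begins 217 bases before the start. The windows of Aqp3 and Avpr2 held none of the 3 motifs. Of 33469 promoter windows of this length, 18.2% held the cyclic AMP response element core, 19.7% the NFAT5 core and 10.3% the GATA core, so a match is common. Aqp6 held 1 NFAT5 core and Aqp4 held 2 in one of its windows and 1 in the other. GC content was 54.4% for Aqp2, 65.2% for Aqp3 and 48.0% for Avpr2.

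Genes of the same pathway were counted next. Of 16 genes of vasopressin and cyclic AMP signalling, 1 rose and 5 fell in DN over normal, where 19.5% of all genes were called in either direction, and at an unadjusted p under 0.05 there were 4 higher and 7 lower, with a list median of -0.19 on the log2 scale against 0.0016 over all genes. Prkaca, a catalytic subunit of protein kinase A, rose by 0.35 (SE 0.085, adjusted p = 0.025), and Prkacb, another catalytic subunit, fell by 0.34 (SE 0.095, adjusted p = 0.0357). The regulatory subunit Prkar2a fell by 0.40 (adjusted p = 0.0205) and Creb1, a factor that protein kinase A phosphorylates, fell by 0.79 (adjusted p = 0.0172). Ptger4, a prostaglandin E2 receptor that raises cyclic AMP, fell by 0.66 (adjusted p = 0.0316), and Pde4b, a phosphodiesterase that degrades cyclic AMP, fell by 0.47 (adjusted p = 0.0306). In SIN (20 mg/kg) over normal Pde4b alone was called, at -0.58 (adjusted p = 0.0141), where 6.36% of all genes were called. In SIN (40 mg/kg) over normal edgeR called none of the 16, and 6 had an unadjusted p under 0.05, where 22.9% of all genes did. Slc14a2, the vasopressin-regulated urea transporter, belongs both to this list and to the inner medulla genes.

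Of 11 measured genes of Aqp2 trafficking, 3 fell and none rose in DN over normal, where 19.5% of all genes were called in either direction. Rab11fip2, an adaptor of recycling endosomes, fell by 0.77 (adjusted p = 0.011), Rab5a, of early endosomes, fell by 0.50 (adjusted p = 0.0303), and Stx3, an apical SNARE protein, fell by 0.39 (adjusted p = 0.041). Myo5b, a motor that carries recycling vesicles, rose in SIN (20 mg/kg) over normal by 0.38 (adjusted p = 0.0365), the single call there, where 6.36% of all genes were called. No trafficking gene was called in SIN (40 mg/kg) over normal. There 2 had an unadjusted p under 0.05, where 22.9% of all genes did.

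Of 10 genes whose products regulate Aqp2 or principal cell identity, Tfcp2l1, a factor of the collecting duct, fell in all 3 groups, by 0.82 in DN over normal (adjusted p = 0.00421), by 0.60 in SIN (20 mg/kg) over normal (adjusted p = 0.0119) and by 0.54 in SIN (40 mg/kg) over normal (adjusted p = 0.0457). Elf5, an ETS factor of principal cells, rose by 1.91 in SIN (20 mg/kg) over normal (adjusted p = 0.0204) and by 1.88 in SIN (40 mg/kg) over normal (adjusted p = 0.0362), and was at 1.51 in DN over normal (adjusted p = 0.0836). The remaining 8 genes of the list passed the test in none of these comparisons. Of all genes, 19.5% were called in DN over normal, 6.36% in SIN (20 mg/kg) over normal and 5.97% in SIN (40 mg/kg) over normal. Of 6 measured genes of the osmolyte and hypertonicity response, 1 fell in DN over normal, where 19.5% of all genes were called in either direction. It was Hspa4l, a chaperone induced by osmotic stress (log2 fold change -0.57, adjusted p = 0.0479). None was called in the lower-dose or higher-dose SIN group over normal. There 0 and 1 had an unadjusted p under 0.05, where 20.8% and 22.9% of all genes did.

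Other tissue differed between rats as well. The summed level of 7 urothelium genes was 118 CPM in DN replicate 3 and 55.5 CPM in normal replicate 1, and 1.67 to 18.4 CPM in the other rats. The summed level of 5 smooth muscle genes was 699 CPM in DN replicate 3, 199 CPM in normal replicate 1 and 89.5 to 278 CPM elsewhere. Of 7 intercalated cell genes, 3 fell in DN over normal, where 19.5% of all genes were called in either direction. The part of these differences, and of medulla content, in the levels of the 8 members was not tested beyond the covariate and the host marker values given above.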

How the data were processed

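Kidney polyA RNA of 16 rats was sequenced as paired reads on an Illumina NovaSeq. The authors aligned reads with TopHat to Rnor_6.0 and deposited RSEM estimated counts per gene, of which 74.3% of nonzero values were whole. The file's columns were matched to samples by the number in the sample description, and the authors' group means equalled the means of those columns. A further 4 per-sample columns and 1 mean column without a sample record were not used. Strand handling in counting is not given in the sources used here, so reads of overlapping antisense genes cannot be told apart.

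Counts were rounded and tested with edgeR 4.0.16 in R 4.3.3 (TMM, filterByExpr, quasi-likelihood test, 2 groups per fit, Benjamini-Hochberg over all genes tested, called at adjusted p under 0.05). Levels of members were compared per base of the deposited gene length. log2 CPM used a prior count of 2. Single values were compared by exact permutation of rats, and within-group correlations by 100000 permutations within groups. DESeq2 1.42.0 and the other alternatives are given in the closing section. Each rat was 1 library, p-values judge differences and correlations against the variation between rats, and library totals limit counting error only. A symbol with several gene IDs was taken as the ID with most counts. All 8 members were named, list genes could be named, and for each member the 3 genes most like it were found by correlation. Some genes of the lists and of these searches are not reported here by name. The fit was tested on simulated data. The members and lists were chosen with earlier results of these data known. Promoter sequences are from RefSeq on GRCr8, a different build from the counts, and only sequences and gene order were taken from it.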

Additional observations from a re-analysis of the deposited data

Results flagged for a closer look

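Of 36 groups of 4 rats tested for a rat apart from the others, 1 was picked out, fewer than the 1 in 20 that chance gives. It was Aqp6 in the normal group, where normal replicate 1, at 105 CPM, lay below 189, 190 and 197 CPM, a gap of 0.935 of the group's range, beyond Dixon's critical value for 4 values. The same rat had the lowest medulla index of the 16, at -2.51.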

How the results depend on the processing

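Of 1235 values under another setting, 1101 were scored as the same. Among these were 79 numbers of members called, scored so when equal or close. The others kept their direction and their side of the threshold. In DN over normal the number of members called was 0, against 2 for DESeq2, 2 for edgeR's exact test, 3 with all 16 rats in one fit, 1 with that fit and the medulla index as a covariate, and 0 to 3 when each rat was left out in turn. In SIN (20 mg/kg) over normal it was 0, against 3 for DESeq2, 3 for the exact test, 1 with at least 10 counts in every rat, 3 with the replicate block, and 0 to 2 with a rat left out. In SIN (40 mg/kg) over normal it was 1, against 3 for DESeq2, 3 for the exact test, 4 with the replicate block, and 0 with RLE normalization, with all 16 rats in one fit, with the medulla index as a covariate in either fit, and without normal replicate 1, and 0 to 2 with a rat left out. The numbers of the rats do not pair them: 2 of 24 pairs of same-numbered rats deviated from their group means together at r over 0.1, with a range of -0.303 to 0.311. With the replicate block, Aqp3 and Avpr2 turned to 0.022 and 0.040 in SIN (20 mg/kg) over DN. Except where a share of all genes called stands in the sections above, these counts of members have no background to be set against. The cause of these changes was not tested.

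With the medulla index as a covariate, Aqp4 and Aqp6 turned to -0.52 and -0.017 in DN over normal and Aqp6 to -0.27 in SIN (40 mg/kg) over normal. With all 16 rats in one fit and that covariate, Aqp4 and Aqp6 were at -0.47 and -0.039 in DN over normal, and Aqp6 and Aqp7 at -0.29 and 0.00074 in SIN (40 mg/kg) over normal. Fits without normal replicate 1 and DN replicate 4 were added after the data had been seen. Without normal replicate 1, Aqp6 was at -0.13 in SIN (40 mg/kg) over normal. Without DN replicate 4, Aqp2 and Aqp7 were at -0.19 and 0.0071 in SIN (20 mg/kg) over DN. Aqp2 and Aqp3 were then at -0.12 and -0.094 in SIN (40 mg/kg) over DN. These same fits are among those with a rat left out below. The correlation of Aqp11 with the index turned to 0.054 without the rats farthest from its median.

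With a rat left out, these uncalled log2 fold changes spanned 0. In DN over normal they were Aqp4 (-0.034 to 0.84) and Aqp6 (-0.0044 to 0.34). In SIN (20 mg/kg) over normal they were Aqp1 (-0.15 to 0.045) and Aqp6 (-0.19 to 0.11), and in SIN (40 mg/kg) over normal Aqp6 (-0.13 to 0.11) and Aqp11 (-0.12 to 0.25). For SIN (20 mg/kg) over DN they were Aqp2 (-0.19 to 0.31), Aqp3 (-0.32 to 0.17), Avpr2 (-0.24 to 0.19), Aqp7 (-0.19 to 0.0071) and Aqp11 (-0.076 to 0.53). For SIN (40 mg/kg) over DN they were Aqp2 (-0.12 to 0.38), Aqp3 (-0.094 to 0.39), Avpr2 (-0.38 to 0.041), Aqp6 (-0.29 to 0.039) and Aqp7 (-0.096 to 0.12). So did the Aqp4 difference from principal cell genes in DN over normal (-0.22 to 0.76), and the medulla index differences of SIN (20 mg/kg) over DN (-0.56 to 0.73), SIN (40 mg/kg) over DN (-0.49 to 0.80) and between the SIN doses (-0.22 to 0.56). Precision was set by 4 rats a group, each with at least 19616312 counts.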
